A study of Mus musculus with 8 samples.

Results

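The retinoblastoma family and the E2F transcription factors were followed through an RNA immunoprecipitation (IP) of DAZL, a germ cell protein that binds mRNA. The 9 genes, of 27961 named on the array, were Rb1, Rbl1, Rbl2, E2f1, E2f2, E2f3, E2f4, E2f5 and E2f6. Their members were all probes for genes, controls left out, whose deposited gene name equalled one of these names. This gave 18 probes of 41174 on the array, and 15 of the 18 passed a filter on dim probes and were tested. The other 3 (A_52_P419873 of Rb1, A_52_P892297 of E2f3 and A_52_P311718 of E2f5) were well above background on no array, so no comparison was made with them.

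All samples came from primordial germ cells made in culture from mouse embryonic stem cells of the V6.5 line, of mixed C57BL/6 and 129SV background, which carried a Dazl-GFP-V5 fusion and were differentiated for 12 days. The 4 groups, each with 2 arrays, were total input RNA without an antibody, a mock IP for which normal mouse IgG was used, an anti-V5 IP and an anti-GFP IP. Both antibodies are directed at the same fusion protein, the lysates were not crosslinked with ultraviolet light, and every control also carried the fusion. The sources used here do not state whether germ cells were sorted from the culture, and cells without the fusion were not analysed here. The design describes a pair of independent experiments, but separate cultures are not stated for each array, so the p-values reflect only how these arrays vary, which may be technical.

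Pocket proteins, encoded by Rb1, Rbl1 (p107) and Rbl2 (p130), bind E2F factors and hold back the transcription of genes needed for DNA replication. Cyclin-dependent kinases phosphorylate the pocket proteins as a cell commits to S phase, which frees the E2Fs. E2F1, E2F2 and E2F3 are known mainly as activators, E2F4 and E2F5 mainly as repressors that work with p107 and p130, and E2F6 represses without a pocket protein, as part of a Polycomb complex. The comparison of each IP with the mock IP addresses which of these transcripts gave more signal with tagged DAZL than with an unspecific antibody.

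Levels are log2 processed intensities from which the array's own 75th percentile was subtracted, so a level of 0 is the 75th percentile of that array. They describe a transcript relative to the other RNA on its array, not an amount of RNA, and levels of different probes are not compared. Between 61.3% (mock 1) and 70.5% (input 1) of all probes were well above background. Mock 1 was the dimmest array, with a 75th percentile of intensity of 352, against 767 on mock 2 and 641 to 1130 on the rest. On the second principal component, which held 25.9% of the variance, mock 1 stood apart from the other 7 arrays. All values against mock IP rest in part on mock 1, so calls of member probes that ended without it are named. For the other genes of the pathway such calls are not named. As a check of the IP, Dazl mRNA was 6.19-fold above mock IP with V5 (limma, adjusted p = 0.00554) and 6.56-fold with GFP (adjusted p = 0.0044).

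The culture's labelled cell type was checked with marker lists. All 10 germ cell markers were well above background on every array, and their summed level on the linear scale (1 being the array's 75th percentile) was 59.9 to 65.8 in input, 47.9 to 64.6 in mock IP, 107 to 173 with V5 and 123 to 179 with GFP. Not all of them rose in the IPs. Dazl, Ddx4, Prdm1, Kit and Nanog were called above mock IP with both antibodies, and Dppa3, Tfap2c and Dnd1 were not called. Nanos3 was called below mock IP (limma, adjusted p = 0.0372 with V5 and 0.0325 with GFP). Pou5f1 averaged 3.86 in mock IP, 3.17 with V5 and 3.13 with GFP on the log2 scale, without a call (adjusted p = 0.12 and 0.0976). The summed level of 6 fibroblast markers was 9.47 to 11.3 in input, 6.88 to 16.6 in mock IP, 4.0 to 5.18 with V5 and 3.70 to 4.66 with GFP. The 6 neural markers summed to 3.86 to 5.71 in input, 7.24 to 8.64 in mock IP, 9.66 to 20.7 with V5 and 10.5 to 19.2 with GFP. The 6 cardiac markers summed to 4.10 to 4.67 in input, 6.21 to 9.66 in mock IP, 2.99 to 3.50 with V5 and 2.42 to 3.12 with GFP. The 6 endoderm markers lay between 0.68 and 2.34 in sum and the 6 blood and endothelial markers between 1.94 and 5.67, with Ttr and Hba-x not well above background on any array. The part of these other cells in the results was not tested, and fewer cells of a type cannot be told apart from less RNA per cell.

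**Figure D1:**
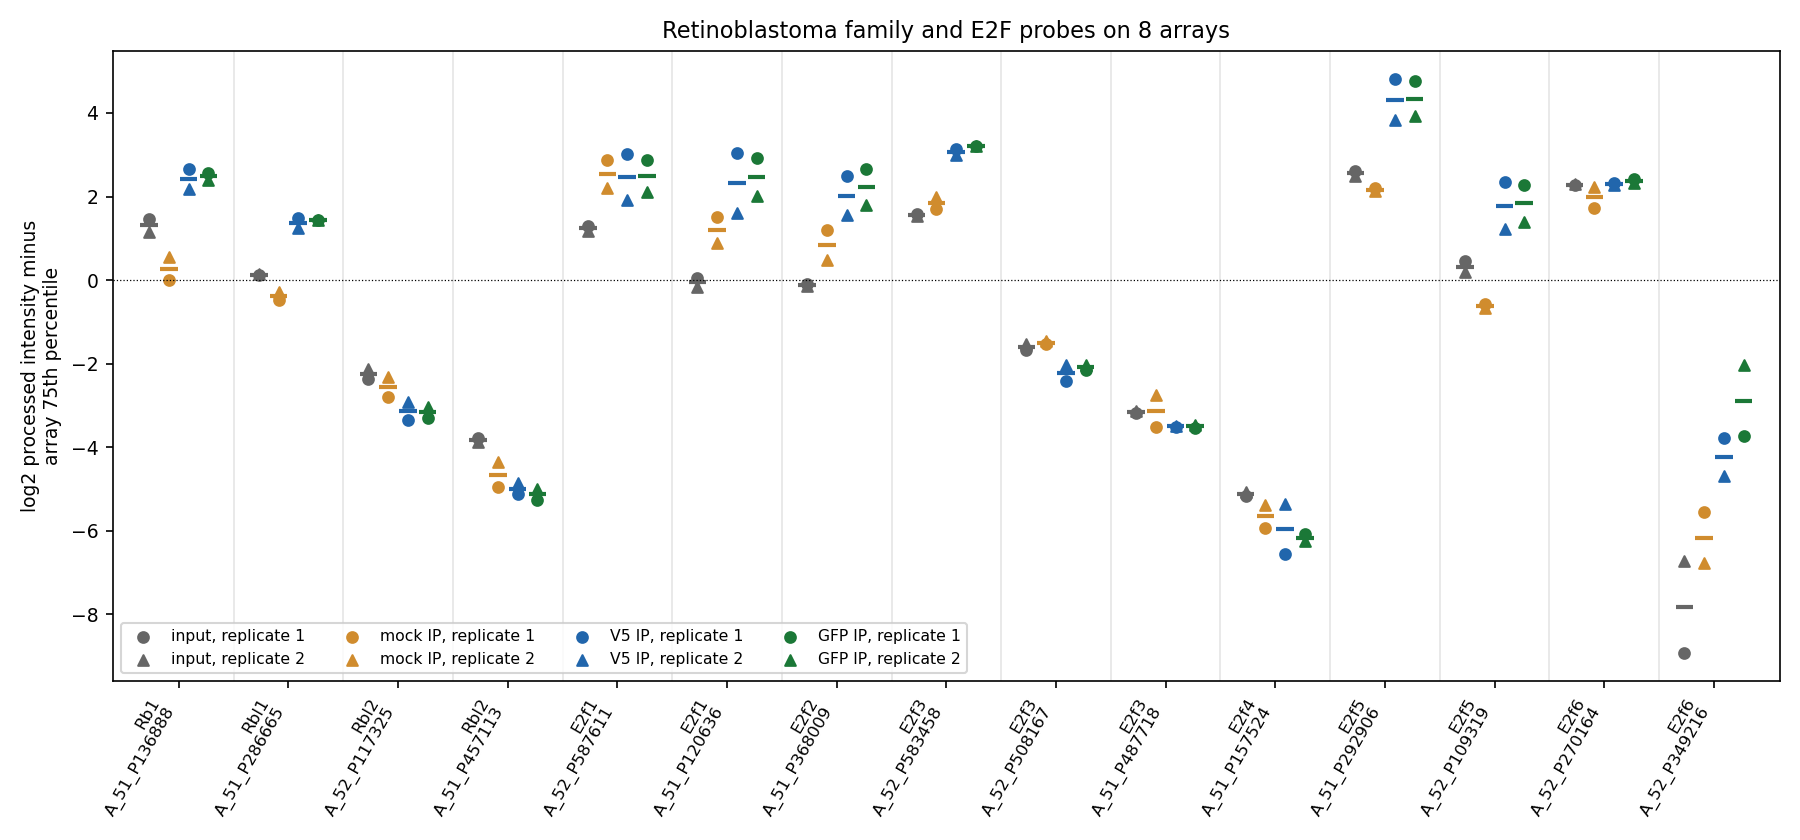
Levels of the 15 tested probes on each of the 8 arrays (y axis: log2 processed intensity, 75th percentile of each array subtracted; circles, replicate 1; triangles, replicate 2; short bars, means of 2 arrays). Every array of both IPs lies above every mock IP and input array for Rb1, Rbl1, E2f2, both E2f5 probes, E2f1 A_51_P120636, E2f3 A_52_P583458 and E2f6 A_52_P349216, while both Rbl2 probes have their lowest means in the IPs.

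Rb1 encodes the founding pocket protein, which binds the activating E2Fs. Rb1 transcript was 4.45-fold higher in V5 IP and 4.64-fold higher in GFP IP than in mock IP. Its probe A_51_P136888 read 1.47 and 1.15 in input, 0.00 and 0.54 in mock IP, 2.67 and 2.18 with V5 and 2.57 and 2.40 with GFP. All 4 IP arrays thus lay above both inputs, and both inputs above both mock IPs. The log2 difference from mock IP was 2.15 ± 0.30 (SE; adjusted p = 0.00443) for V5 and 2.21 ± 0.30 (adjusted p = 0.00355) for GFP. Within slides the V5 difference was 2.67 and 1.64, and the GFP difference was 2.57 and 1.86. The probe was printed in 10 spots on each array. Rb1 also rose over input, by 2.16-fold with V5 (adjusted p = 0.0317) and 2.25-fold with GFP (adjusted p = 0.0233). These calls over input held in 11 of 16 other settings with either antibody (adjusted p of up to 0.188 and 0.151). In mock IP it lay at a log2 difference of -1.04 from input (adjusted p = 0.0642), which passed with a block for the slide (adjusted p = 0.0276).

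Rbl1 encodes p107, a pocket protein that is itself a product of E2F-driven transcription in cycling cells. Rbl1 transcript was 3.35-fold higher in V5 IP and 3.52-fold higher in GFP IP than in mock IP. Its single probe, A_51_P286665, read 0.12 and 0.14 in input, -0.47 and -0.29 in mock IP, 1.49 and 1.25 with V5 and 1.45 and 1.43 with GFP. The order of the groups was the same as for Rb1, with no overlap between either IP and either control. The log2 difference from mock IP was 1.74 ± 0.22 (adjusted p = 0.00353) for V5 and 1.82 ± 0.22 (adjusted p = 0.00276) for GFP. Rbl1 also rose over input, 2.36-fold with V5 (adjusted p = 0.00874) and 2.48-fold with GFP (adjusted p = 0.00613). These calls over input held in 12 of 16 other settings with V5 and 13 of 16 with GFP. Both ended with normexp (adjusted p = 0.069 and 0.0658) and without either input array, and the V5 call also without V5 1. The mock IP lay at a log2 difference of -0.51 from input, which did not pass (adjusted p = 0.159). Rb1 and Rbl1 were called above mock IP with both antibodies in each of the 16 other settings tried, with a log2 difference of at least 1.88 for Rb1 and 1.58 for Rbl1.

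Rbl2 encodes p130, the pocket protein that accumulates in resting cells. Rbl2 did not share the rise of the other pocket protein genes. Probe A_52_P117325 read -2.36 and -2.13 in input, -2.81 and -2.31 in mock IP, -3.35 and -2.91 with V5 and -3.30 and -3.03 with GFP. Both IPs lay below both controls on every array. Against mock IP the log2 difference was -0.57 ± 0.29 for V5 (adjusted p = 0.151) and -0.61 ± 0.29 for GFP (adjusted p = 0.125). With the slide as a block these passed (adjusted p = 0.042 and 0.0318). The median of all tested probes was itself -0.36 in both comparisons, so relative to it Rbl2 lay at -0.22 and -0.25. Against input the difference was -0.89 for V5 (adjusted p = 0.0562, and 0.00994 with the block) and -0.92 for GFP, which was called lower (adjusted p = 0.0447). That call held in 7 of 16 other settings. It ended with quantile normalization (0.062), centring on the median (0.0511), normexp (0.543), the deposited table (0.0798) and no filter on dim probes (0.0828), and without either input array (0.141 and 0.221) or either GFP array (0.218 and 0.0829).

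The second Rbl2 probe, A_51_P457113, is annotated to the same transcript. It read -3.78 and -3.87 in input, -4.96 and -4.35 in mock IP, -5.12 and -4.86 with V5 and -5.26 and -4.99 with GFP. It was well above background on 1 of 2 arrays in mock IP and in GFP IP. It fell below input with both antibodies, with log2 differences of -1.17 for V5 (adjusted p = 0.0227) and -1.31 for GFP (adjusted p = 0.0133). These calls held in 11 of 15 other settings with either antibody. Both ended with normexp (adjusted p = 0.304 and 0.869), without either input array and without replicate 1 of the IP compared. The differences of this probe from mock IP, -0.33 and -0.47, were not called (adjusted p = 0.373 and 0.21). In mock IP it already lay at -0.83 from input (adjusted p = 0.0911, and 0.0302 with the block).

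E2f1 encodes an activating E2F that drives S-phase entry and can also drive apoptosis. Its 2 probes are annotated to the same transcript, and they gave different answers against mock IP. Probe A_52_P587611 read 1.28 and 1.19 in input, 2.87 and 2.20 in mock IP, 3.02 and 1.91 with V5 and 2.87 and 2.10 with GFP. Its values in the IPs overlapped those in mock IP, with log2 differences of -0.07 ± 0.45 for V5 (adjusted p = 0.915) and -0.05 ± 0.45 for GFP (adjusted p = 0.933). Probe A_51_P120636 read 0.06 and -0.17 in input, 1.50 and 0.89 in mock IP, 3.03 and 1.61 with V5 and 2.92 and 2.0 with GFP. Both IPs lay above mock IP on both arrays, by 1.12 ± 0.52 for V5 and 1.27 ± 0.52 for GFP. These differences were not called (adjusted p = 0.126 and 0.0869), yet both passed in the fit blocked by slide (adjusted p = 0.0178 and 0.00997).

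The change of A_52_P587611 was 1.19 ± 0.16 smaller than that of A_51_P120636 in V5 against mock IP (log2 difference between probes -1.19, adjusted p = 0.00985) and 1.32 ± 0.16 smaller in GFP against mock IP (-1.32, adjusted p = 0.00672). This test of probes against each other was chosen after the values were seen and was adjusted over 8418 probe pairs of 6233 genes. Of all pairs, 13.3% differed in V5 against mock IP and 18.6% in GFP against mock IP. The V5 call ended with the normexp background correction, with only the compared groups in the fit and without V5 1 (adjusted p of up to 0.0975), and the GFP call with normexp and without GFP 1 (up to 0.0557). Between mock IP and input the 2 probes moved alike, with log2 differences of 1.30 and 1.25 and a difference between probes of 0.05 ± 0.16 (adjusted p = 0.877; 1.73% of all pairs differed). Neither was called there (adjusted p = 0.0934 and 0.14), and both passed with the block (0.0131 and 0.0191). Both probes therefore read higher in the mock IP than in input on both slides.

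E2f2 encodes another activating E2F. Its single probe, A_51_P368009, read -0.09 and -0.15 in input, 1.19 and 0.48 in mock IP, 2.49 and 1.56 with V5 and 2.65 and 1.80 with GFP. The groups rose in that order without overlap, apart from V5 and GFP. E2f2 was 2.62-fold higher in GFP IP than in mock IP (log2 1.39 ± 0.43, adjusted p = 0.0392). In V5 IP the difference was 1.19 ± 0.43 and was not called (adjusted p = 0.0691, and 0.0108 with the block). The GFP call ended in 8 of 16 other settings, among them without mock 1 (adjusted p = 0.0738), without mock 2 (0.161), without GFP 1 (0.191) and without either input array (0.0697 each). Over input, E2f2 rose 4.42-fold with V5 (adjusted p = 0.0126) and 5.09-fold with GFP (adjusted p = 0.0079). The mock IP itself lay 0.96 above input on the log2 scale (adjusted p = 0.167, and 0.0286 with the block).

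E2f3 encodes the third activating E2F, made in cells as a long and a short isoform. Of its 3 tested probes, 1 rose in the IPs and 2 did not. Probe A_52_P583458, designed on a partial cDNA clone of E2f3, read 1.58 and 1.54 in input, 1.71 and 2.0 in mock IP, 3.13 and 2.98 with V5 and 3.20 and 3.21 with GFP. It was 2.30-fold higher in V5 IP than in mock IP (log2 1.20 ± 0.23, adjusted p = 0.0126) and 2.56-fold higher in GFP IP (log2 1.35 ± 0.23, adjusted p = 0.00701). Over input it rose 2.82-fold with V5 (adjusted p = 0.00518) and 3.14-fold with GFP (adjusted p = 0.00344). The V5 call over mock IP ended with normexp (adjusted p = 0.0828), with only the compared groups in the fit (0.0802) and without V5 1 (0.0841). The GFP call ended with normexp (0.0607) and without GFP 1 (0.0527).

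Probes A_52_P508167 and A_51_P487718 are both annotated to the reference E2f3 transcript. A_52_P508167 read -1.66 and -1.53 in input, -1.53 and -1.47 in mock IP, -2.41 and -2.03 with V5 and -2.15 and -2.02 with GFP. Both IPs lay below both controls, with log2 differences from mock IP of -0.72 ± 0.24 for V5 (adjusted p = 0.0519, and 0.0201 with the block) and -0.59 ± 0.24 for GFP (adjusted p = 0.0829, and 0.0365 with the block). From input it lay at -0.63 with V5 (adjusted p = 0.0879, and 0.0366 with the block) and -0.49 with GFP (adjusted p = 0.15). A_51_P487718 read -3.19 and -3.14 in input, -3.51 and -2.74 in mock IP, -3.51 and -3.48 with V5 and -3.53 and -3.47 with GFP, and was called in no comparison. The change of A_52_P583458 exceeded that of A_52_P508167 by 1.93 ± 0.21 in V5 (adjusted p = 0.00714) and 1.94 ± 0.21 in GFP against mock IP (adjusted p = 0.00601). It exceeded that of A_51_P487718 by 1.58 ± 0.19 in V5 (adjusted p = 0.00868) and 1.73 ± 0.19 in GFP (adjusted p = 0.00601). In mock IP against input the same differences between probes were 0.20 (adjusted p = 0.606) and 0.26 (adjusted p = 0.446). With the normexp correction all 4 differences against mock IP lost their call (adjusted p of up to 0.458). With only the compared groups in the fit, both V5 differences and that of A_51_P487718 in GFP lost theirs, as did the V5 difference from A_51_P487718 without V5 1.

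E2f4 encodes the most widely expressed repressor E2F, which enters the nucleus with p107 and p130. Its probe A_51_P157524 read -5.16 and -5.06 in input, -5.92 and -5.39 in mock IP, -6.56 and -5.36 with V5 and -6.08 and -6.25 with GFP. Only in input did it pass background on both arrays, and it did so on 1 of 2 arrays in mock IP and V5 IP and on neither in GFP IP. No difference was called. GFP IP lay at least 1.68-fold below input (adjusted p = 0.0852), which passed with the block (0.0329). The probe had passed the filter through input alone, so a fall below input was favoured by that choice.

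E2f5 encodes the other repressor E2F that binds p130, and both of its tested probes rose with both antibodies. Probe A_51_P292906 read 2.61 and 2.49 in input, 2.20 and 2.13 in mock IP, 4.80 and 3.83 with V5 and 4.75 and 3.93 with GFP. It was 4.44-fold higher in V5 IP than in mock IP (log2 2.15 ± 0.39, adjusted p = 0.0116) and 4.52-fold higher in GFP IP (log2 2.18 ± 0.39, adjusted p = 0.0091). Probe A_52_P109319 read 0.45 and 0.20 in input, -0.58 and -0.68 in mock IP, 2.35 and 1.22 with V5 and 2.28 and 1.40 with GFP. It was 5.31-fold higher in V5 IP (log2 2.41 ± 0.43, adjusted p = 0.011) and 5.53-fold higher in GFP IP (log2 2.47 ± 0.43, adjusted p = 0.00841). For both probes replicate 1 of each IP lay higher than replicate 2, and every IP array lay above every control array.

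The E2f5 probes are annotated to different database entries of the mRNA, and the difference between their changes was -0.26 ± 0.13 in V5 (adjusted p = 0.282) and -0.29 ± 0.13 in GFP against mock IP (adjusted p = 0.2). Over input, A_51_P292906 rose 3.40-fold with V5 (adjusted p = 0.0175) and 3.46-fold with GFP (adjusted p = 0.0141), and A_52_P109319 rose 2.75-fold (adjusted p = 0.0441) and 2.86-fold (adjusted p = 0.0345). The calls of A_52_P109319 over input held in 7 of 15 other settings with V5 and 8 of 15 with GFP. Both ended with normexp, with no filter on dim probes, without either input array, without either mock array and without replicate 1 of the IP compared (adjusted p of up to 0.222 and 0.185). In mock IP A_52_P109319 lay at -0.95 from input (adjusted p = 0.17, and 0.0418 with the block). The calls over mock IP rested in part on single arrays. Without mock 1 the adjusted p of A_51_P292906 was 0.0697 for V5 and 0.0516 for GFP, and that of A_52_P109319 was 0.0694 and 0.0502. Without V5 1 both V5 calls ended (0.0591 and 0.0518), and without GFP 1 the GFP call of A_51_P292906 ended (0.056). The log2 differences from mock IP stayed at or above 1.67 in every setting.

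E2f6 encodes the E2F that works in a Polycomb complex and keeps germ cell genes silent in somatic cells. Its probe A_52_P270164, annotated to the reference transcript, read 2.27 and 2.29 in input, 1.72 and 2.23 in mock IP, 2.32 and 2.28 with V5 and 2.42 and 2.33 with GFP. No difference of this probe was called. Its log2 differences from mock IP were 0.32 ± 0.25 for V5 (adjusted p = 0.338) and 0.40 ± 0.25 for GFP (adjusted p = 0.232). On slide 2 alone they were 0.04 and 0.09, against 0.60 and 0.70 on the slide of mock 1.

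The other E2f6 probe, A_52_P349216, was designed on a cDNA clone. It was not well above background in input or mock IP and passed the filter only through V5 IP and GFP IP. The filter thus favoured a rise over both controls, and its p-values support no such rise. It read -8.91 and -6.73 in input, -5.55 and -6.77 in mock IP, -3.79 and -4.70 with V5 and -3.74 and -2.04 with GFP. Against the lowest signal well above background on the control arrays, it was at least 6.31-fold higher in GFP IP than in mock IP (adjusted p = 0.0234). In V5 IP it was at least 2.47-fold higher than in mock IP, which was not called (adjusted p = 0.116). Over input it was at least 4.22-fold higher with V5 (adjusted p = 0.0219) and at least 10.8-fold higher with GFP (adjusted p = 0.00648). The GFP call over mock IP ended with normexp (adjusted p = 0.469), without either mock array (0.0711 and 0.111) and without GFP 2 (0.0837). The V5 difference from input turned to -0.31 with normexp (adjusted p = 0.784) and lost its call without input 1 (0.125) and without V5 1 (0.106). The GFP difference from input lost its call with normexp (0.765).

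Counted together, V5 IP was called above mock IP for 5 of the 15 tested probes and below it for 0, where 15.3% of all 28103 tested probes were called higher and 17.1% lower. The 5 were those of Rb1 and Rbl1, both of E2f5 and 1 of E2f3. In GFP IP against mock IP 7 were called higher and 0 lower, against 17.1% and 22.5% of all probes, with E2f2 and the dim E2f6 probe added. That probe had to be high in an IP to be tested. Of the 12 probes that were well above background in all 4 groups, 5 were called higher with V5 and 6 with GFP. No share of all probes detected in this way is given, so these counts have no comparison. With the slide as a block, 7 were called higher and 2 lower with V5, where 20.8% and 33.2% of all probes were, and 8 higher and 2 lower with GFP, where 22.3% and 35.7% were. The median log2 difference of the 15 probes was 1.12 with V5 and 1.27 with GFP, beside -0.36 for all tested probes in both. At an unadjusted p under 0.05, 7 of the probes passed with V5, where 47.8% of all probes did, and 9 with GFP, where 51.2% did. Both IP arrays lay above both mock IP arrays for 9 probes and below them for 2 with V5 (24.4% and 43.2% of all probes), and for 9 and 4 with GFP (25.8% and 44.6%).

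**Figure D2:**
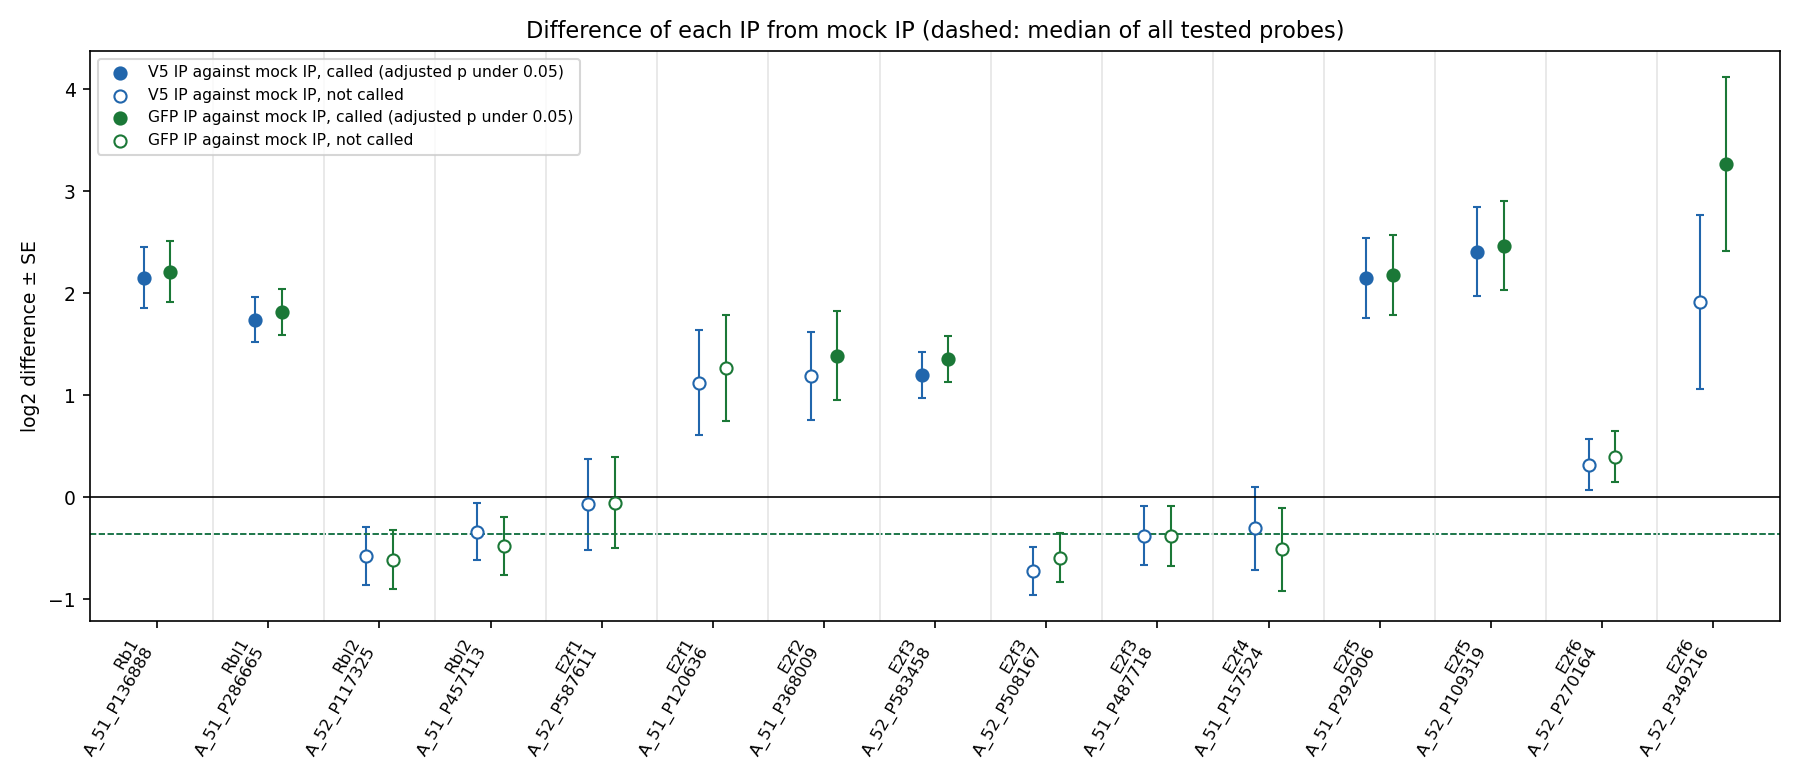
Log2 difference of V5 IP (blue) and GFP IP (green) from mock IP for the 15 tested probes, as the estimate of the fit ± SE from 2 arrays a group; filled points have an adjusted p under 0.05 and the dashed line is the median of all tested probes (-0.36). Rb1, Rbl1, both E2f5 probes and 1 E2f3 probe are filled for both antibodies, and the fitted values of E2f6 A_52_P349216 rest on mock IP signals at background.

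Against input, 8 probes were called higher and 1 lower with V5, where 13.9% of all tested probes were called higher and 13.6% lower. With GFP 8 were called higher and 2 lower, where 15.6% and 16.6% were. With the slide as a block these were 9 and 3 with V5 (19.9% and 24.7% of all probes) and 9 and 3 with GFP (21.6% and 27.2%). Both arrays lay above both input arrays for 9 probes and below for 5 with V5 (30.7% and 40.3% of all), and for 10 and 5 with GFP (31.7% and 41.9%). The genes called higher over input with both antibodies were Rb1, Rbl1, E2f1 (1 of 2 probes), E2f2, E2f3 (1 of 3 tested probes), E2f5 and E2f6 (its dim probe, which the filter had chosen through the IPs), and the gene called lower was Rbl2. Of the 12 probes well above background in all 4 groups, 7 were called higher with either antibody, 0 lower with V5 and 1 lower with GFP. For these counts too, no share of all probes detected in this way is given. E2f1 probe A_51_P120636 rose 5.19-fold with V5 (adjusted p = 0.0162) and 5.74-fold with GFP (adjusted p = 0.0114). Its partner A_52_P587611 lay 1.23 and 1.25 above input on the log2 scale (adjusted p = 0.0781 and 0.0686, and 0.00901 and 0.00763 with the block). The counts called higher over input rested on both input arrays and on replicate 1 of each IP, and fell when any of these was left out. The calls over all tested probes fell as well, so this loss was not particular to the members.

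In mock IP against input 0 of the 15 probes were called, where limma called 5.35% of all probes higher and 4.97% lower. At an unadjusted p under 0.05, 4 probes passed, where 33.5% of all probes did. With the slide as a block, 3 were called higher, both of E2f1 and that of E2f2, and 3 lower, those of Rb1, 1 of Rbl2 and 1 of E2f5. Of all tested probes 18.2% were called higher and 16.1% lower with the block. Without it, both mock IP arrays lay above both inputs for 5 of the probes and below for 7, against 36.8% and 30.7% of all probes. Members thus lay on both sides of input in mock IP, as did the probes of the whole array. Rb1, Rbl1 and E2f5 read lower in mock IP than in input on both arrays, while E2f1, E2f2 and the E2f3 probe A_52_P583458 read higher in it. It follows that the log2 difference of the IPs from mock IP exceeded that from input for Rb1, Rbl1 and both E2f5 probes. For both E2f1 probes, E2f2 and the E2f3 probe A_52_P583458 it was smaller. This is no separate result, since these fits share the IP arrays. E2f1 probe A_52_P587611 did not rise over mock IP, nor did the other tested E2f3 probes.

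**Figure D3:**
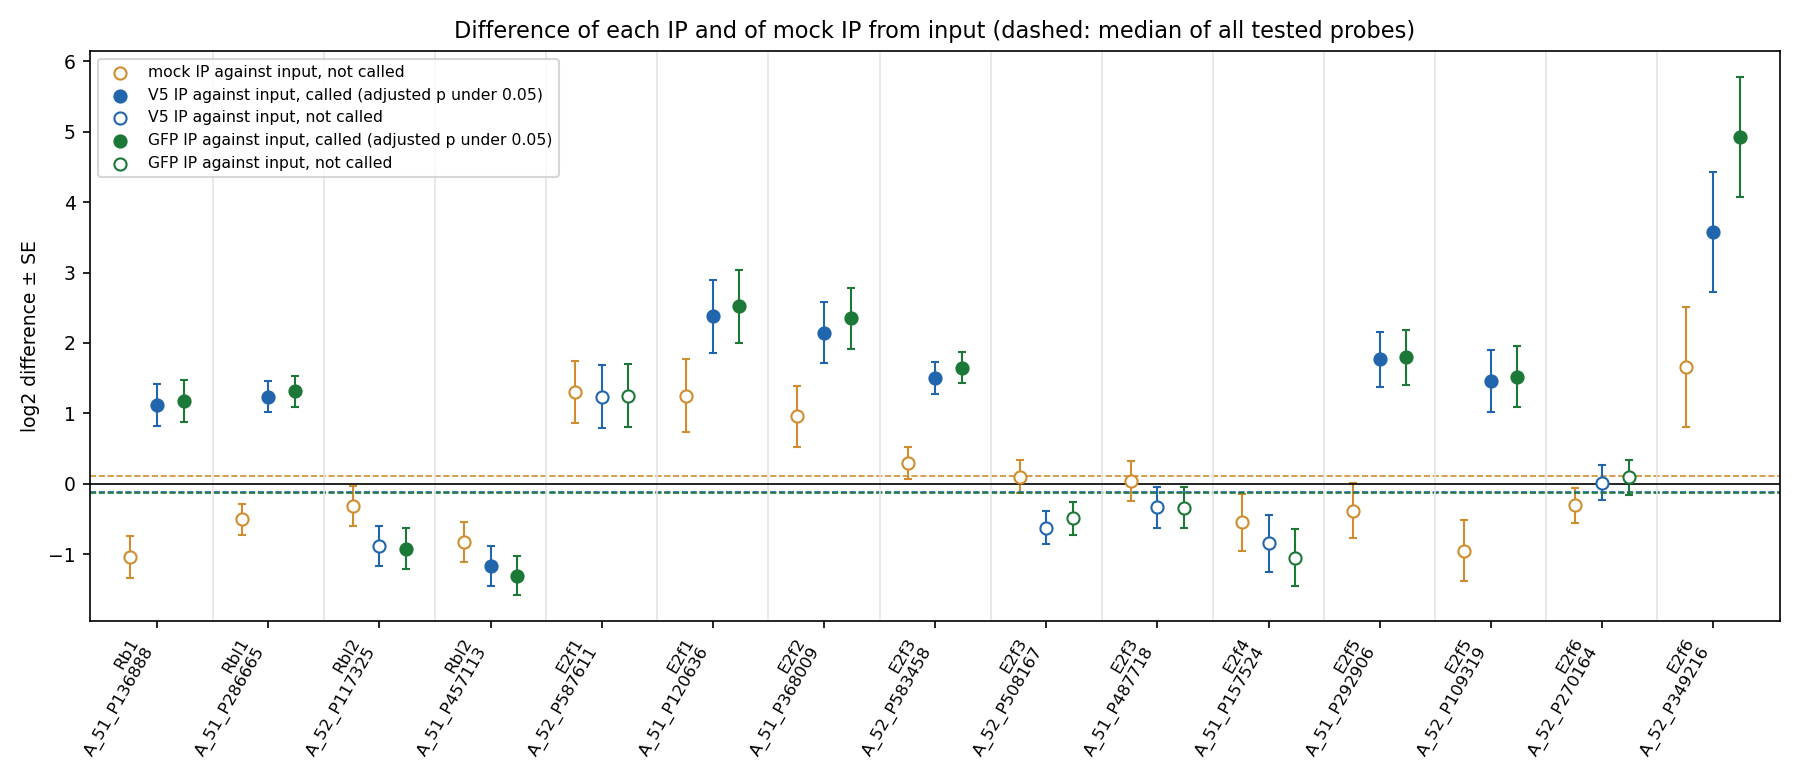
Log2 difference of mock IP (orange), V5 IP (blue) and GFP IP (green) from input for the 15 tested probes, as the estimate of the fit ± SE from 2 arrays a group; filled points have an adjusted p under 0.05 and dashed lines are medians of all tested probes. No mock IP point is filled, and the E2f1 and E2f2 probes lie above 0 in mock IP as well as in both IPs.

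The antibodies were compared directly as well. V5 IP and GFP IP differed for 0 of the 15 probes, and for 0 of all 28103 (0% called by limma). At an unadjusted p under 0.05, 0 of the 15 and 283 of all probes passed. The log2 difference between V5 and GFP lay between -0.20 and 0.21 for 14 of the probes and at -1.35 ± 0.85 for the dim E2f6 probe. With SEs of 0.22 to 0.52 for the 14, small differences between the antibodies were not detectable.

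The other genes of the pathway were read with 1 probe per gene, the brightest. Over 19685 genes the median log2 difference from mock IP was -0.43 with both antibodies, 14.3% were called higher and 19.1% lower with V5, and 16.1% and 24.8% with GFP. The E2F dimerization partners and atypical E2Fs rose in 2 of 4 genes with V5 and 3 of 4 with GFP, with 0 lower and a median of 0.99 and 1.22. Tfdp1, which encodes the partner DP1 that E2Fs need to bind DNA, rose 7.47-fold with V5 (adjusted p = 0.00268) and 8.0-fold with GFP (adjusted p = 0.00232), the largest change in this list. E2f7, an atypical repressor, rose 2.27-fold (adjusted p = 0.0196) and 2.56-fold (adjusted p = 0.0103). Tfdp2 passed with GFP (2.12-fold, adjusted p = 0.0222) and lay at 0.80 with V5 (adjusted p = 0.0596, and 0.0251 with the slide as a block), and E2f8 lay at 0.07 and 0.23, with no call.

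The cyclins and kinases that phosphorylate pocket proteins were split. Of 9 genes, 3 rose and 3 fell with V5, and 5 rose and 3 fell with GFP (median 0.96 and 1.0). Ccnd1, the D-type cyclin that starts pocket protein phosphorylation, rose 5.75-fold with V5 (adjusted p = 0.00944) and 6.59-fold with GFP (adjusted p = 0.00622), and its kinase gene Cdk6 rose 2.17-fold (adjusted p = 0.0167) and 3.15-fold (adjusted p = 0.00381). Ccnd3 and Cdk4, which encode the same kinds of protein, fell, with log2 differences of -1.10 and -1.09 for Ccnd3 (adjusted p = 0.0223 and 0.0169) and -0.80 and -0.92 for Cdk4 (adjusted p = 0.032 and 0.0173). Among 7 kinase inhibitor genes 0 rose and 2 fell with V5, and 1 rose and 2 fell with GFP (median -0.70 and -0.66). Cdkn1a (p21) lay at -0.70 and -0.72 (adjusted p = 0.0442 and 0.0356) and Cdkn2b (p15) at -0.76 and -0.78 (adjusted p = 0.0483 and 0.04). These calls held in 4 of 16 other settings. Cdkn1b (p27) lay at 0.68 and 0.78 (adjusted p = 0.115 and 0.0732, and 0.0471 and 0.0269 with the block). Cdkn2d (p19) rose 4.03-fold with GFP (adjusted p = 0.0329), and lay at 1.83 with V5 (adjusted p = 0.0504, and 0.00866 with the block).

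The complexes that pocket proteins and E2F6 work in were also mixed. Of 7 measured genes of the MuvB and DREAM complex, which represses cell cycle genes together with p107 and p130, 2 rose and 2 fell with either antibody. Lin9 rose 4.93-fold with V5 (adjusted p = 0.00305) and 4.78-fold with GFP (adjusted p = 0.00277) and Rbbp4 rose 3.79-fold and 4.01-fold (adjusted p = 0.0061 and 0.00466). Lin37 fell, at -0.92 and -1.15 on the log2 scale (adjusted p = 0.0238 and 0.0103), as did Mybl2, at -1.03 and -1.12 (adjusted p = 0.0298 and 0.0191). Of 6 corepressor genes 2 rose and 0 fell with either antibody, Hdac2 3.81-fold and 4.02-fold (adjusted p = 0.0105 and 0.00766) and Arid4a 2.12-fold and 2.09-fold (adjusted p = 0.0166 and 0.0131). Hdac1, the paralog of Hdac2, lay at -0.42 and -0.44 and was not called (adjusted p = 0.177 and 0.15). Sin3b, a scaffold of histone deacetylase complexes, lay at -0.55 and -0.60 (adjusted p = 0.219 and 0.177), and passed with GFP with the block (0.044). Of 7 genes of the Polycomb complex of E2F6, 2 rose and 1 fell with V5, and 3 rose and 1 fell with GFP. Rnf2 (RING1B) rose 8.76-fold and 8.43-fold (adjusted p = 0.00256 and 0.00225) and Cbx3 5.18-fold and 5.51-fold (adjusted p = 0.00261 and 0.00228), while Ring1, the paralog of Rnf2, fell, at -1.0 and -1.12 (adjusted p = 0.024 and 0.0139), and L3mbtl2 (-0.71 in both) was called lower only in the fit with the block (adjusted p = 0.0218 and 0.02, against 0.105 and 0.1 without it).

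The E2F target genes of DNA replication were called in both directions. Of 22 genes, 2 rose and 2 fell with V5, where 14.3% of all genes were called higher and 19.1% lower. With GFP 2 rose and 4 fell, where 16.1% and 24.8% were. The medians were -0.25 and -0.21, beside -0.43 for all genes. With the slide as a block the counts became 3 and 9 with V5 (20.8% and 33.2% of all probes), and 5 and 7 with GFP (22.3% and 35.7%). Pola1, the catalytic subunit of DNA polymerase alpha, rose 3.57-fold with V5 (adjusted p = 0.00462) and 3.27-fold with GFP (adjusted p = 0.00515), and the helicase subunit gene Mcm4 rose 2.25-fold and 2.44-fold (adjusted p = 0.0203 and 0.0121). Mcm5, of the same helicase, fell, at -1.03 and -1.11 (adjusted p = 0.0248 and 0.0155), as did Tyms, whose enzyme makes thymidylate, at -0.94 and -1.14 (adjusted p = 0.0323 and 0.0157). Against input 1 of the 22 rose and 6 fell with either antibody, where 14.0% of all genes were called higher and 13.1% lower with V5, and 15.8% and 16.2% with GFP. With the block 2 rose and 8 fell with V5 (19.9% and 24.7% of all probes), and 4 rose and 7 fell with GFP (21.6% and 27.2%). The median was -0.35 and -0.33 against input, beside -0.12 and -0.13 for all probes. Of the list genes named here as called with both antibodies over mock IP, Tfdp1, Lin9, Rbbp4, Rnf2, Cbx3 and Pola1 held both calls in all 16 other settings. Each of the others lost at least 1 of its calls in some setting. Among the falls, apart from Cdkn1a and Cdkn2b, the V5 calls held in 5 (Cdk4 and Tyms), 7 (Mybl2), 8 (Lin37, Ring1 and Mcm5) and 9 (Ccnd3) settings. Their GFP calls held in 11 to 13. The remaining rises held in 9 (Cdk6) to 15 (Ccnd1) settings with V5 and in 12 (Arid4a) to 16 (Ccnd1 and Cdk6) with GFP.

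**Figure D4:**
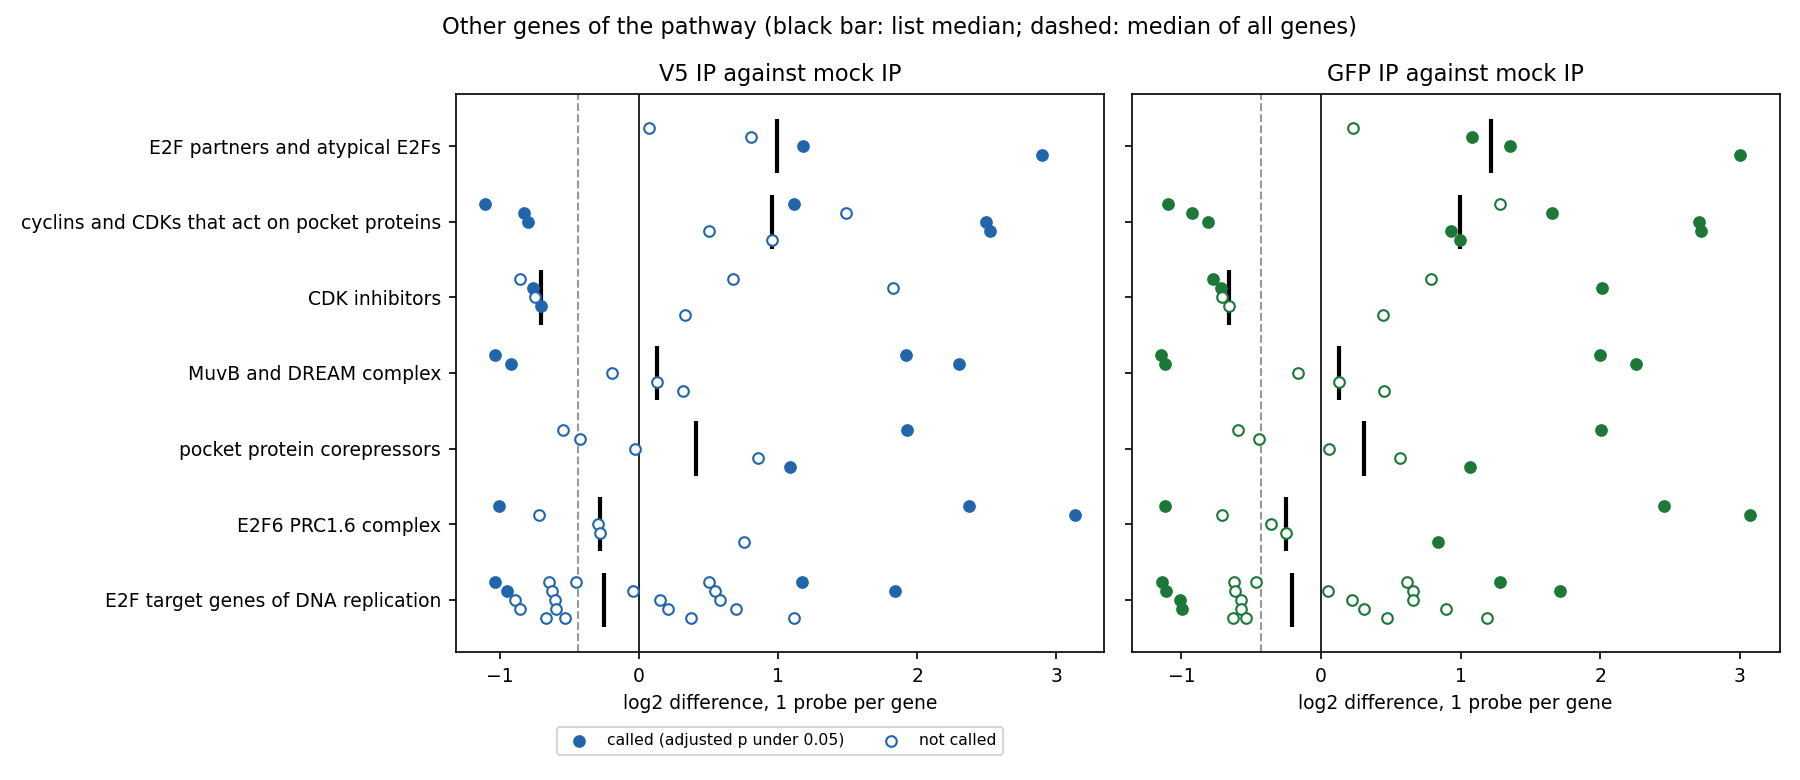
Log2 difference of V5 IP (left, blue) and GFP IP (right, green) from mock IP for the measured genes of 7 pathway lists, 1 probe per gene; filled points have an adjusted p under 0.05, black bars are list medians and the dashed line is the median of all genes (-0.43). Points of the cyclin, MuvB and Polycomb lists lie filled on both sides of 0, and the medians of the 22 E2F target genes lie at -0.25 and -0.21.

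The genes whose levels followed each member most closely over the 8 arrays were found by Pearson's r among 22711 probes of named genes, as a description. Each member was represented by its brightest tested probe, A_52_P587611 for E2f1, A_52_P583458 for E2f3 and A_52_P270164 for E2f6. Where probes of a gene disagreed, the r values hold for that probe only. The closest genes were Sgk3 (r = 0.9995) and Tgoln2 (0.9973) for Rb1, Ddx3x (0.9989) and Anp32e (0.9987) for Rbl1, and Dhx32 (0.9905) and Brap (0.9897) for Rbl2. For E2f1 they were Maz (0.996) and Syn1 (0.994), for E2f2 Slc8b1 and Icmt (0.999 each), and for E2f3 Foxn2 (0.9982) and Ids (0.9973). For E2f4 they were Habp4 (0.9583) and Depdc5 (0.9558), for E2f5 Dlgap1 (0.9991) and Ssr3 (0.999), and for E2f6 Pdzrn4 (0.9853) and Brms1l (0.9843). Among the members themselves, Rb1 followed Rbl1 (r = 0.97), Rbl1 followed E2f5 (0.96), and Rbl2 ran opposite to E2f2 (-0.98). All of these use the same 8 arrays in 4 groups, so the group means carry most of each r.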

How the data were processed

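RNA from 8 samples, 2 in each of the 4 groups, was read on 1-colour Agilent arrays with Feature Extraction 9.1.3.1, per the file headers. The deposited array files hold linear spot intensities, and the processed intensity is background-subtracted, per the file headers. The authors' deposited table of the series holds a normalized signal, and its deposited quality score was used only to match its entries to spots. No build is named for the probes, and no coordinates are printed.

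Values were log2 of the deposited processed intensity, from which each array's 75th percentile was taken off. Outlier spots were dropped before the spots of a probe were averaged, unless all of its spots were flagged. A probe with 1 spot therefore always kept it, and of the member probes only Rb1 A_51_P136888 and E2f1 A_51_P120636 had more. To be kept, a probe needed 1 group with both of its arrays well above background, as 28103 of 41174 had. The two-sided test of limma 3.58.1 (R 4.3.3; lmFit, then eBayes) was fitted per probe over all 8 arrays, with Benjamini-Hochberg adjustment over all kept probes and a call at an adjusted p under 0.05. The fit was tested on simulated data. Where a probe was not well above background on the dimmer group's arrays, its fold is written "at least" and sets the brighter mean against the higher, per array, of the lowest signal well above background and the probe's own.

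The replicate number is also the slide: all 4 arrays of a number share 1 slide and scan. A group sat at the same position on either slide, so position and group cannot be told apart. The replicate differences of any pair of groups correlated over probes (r of 0.304 to 0.776). With the design's account of independent experiments, the numbers were taken to pair the samples. The main fit nevertheless leaves this pairing out, and only the blocked alternative uses it. With the block 18 of the 90 member results changed their call. Blocked values stand beside results whose call they change.

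The members and gene lists were chosen with earlier results of these data known. All member probes are named. Of each list the rule named, for either IP over the mock, the 2 genes of highest and the 2 of lowest moderated t, and for each member the 2 genes most like it over the arrays. The alternatives were quantile normalization, centring on the median, normexp with an offset of 50, the deposited table as log2 of signal plus 0.1, no filter on dim probes, only the compared groups, the block, 1 probe per gene, and leaving out each array. The test of probes of 1 gene against each other was added after the values were seen.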

Additional observations from a re-analysis of the deposited data

How the results depend on the processing

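Counts of the 15 probes called are given as higher and lower. With normexp they were 4 and 0 in V5 against mock IP, 4 and 0 in GFP against mock IP, 1 and 0 in V5 against input and 2 and 0 in GFP against input. With the replicate block, which pairs arrays by slide, they were 7 and 2, 8 and 2, 9 and 3, and 9 and 3, and 3 and 3 in mock IP against input. With 1 probe per gene (9 probes) they were 4 and 0, 5 and 0, 5 and 0, and 5 and 1. Quantile normalization called 1 lower in V5 against mock IP, in mock IP against input and in GFP against input. In GFP against input, centring on the median, the deposited table and no filter on dim probes also called 1 lower. Leaving out 1 array gave 2 to 7 higher in V5 against mock IP, 3 to 8 in GFP against mock IP, 0 to 9 higher and 0 to 2 lower in V5 against input, 2 to 9 higher and 0 to 3 lower in GFP against input, and 0 to 2 lower in mock IP against input. The lowest counts against mock IP came without V5 1 and without mock 1, where the calls over all tested probes fell as well. The dim E2f6 probe A_52_P349216 turned in V5 against input with normexp, to -0.31 (adjusted p = 0.784). The cause was not tested. Of 90 results (15 probes in 6 comparisons) normexp ended 19 calls, the block ended 0 and added 18, and leaving out input 1 or input 2 ended 18 and 17. Over all probes, the split of higher and lower calls in V5 against mock IP was 4313 and 4805, but 4805 and 1737 with the deposited table, 3079 and 1059 without the filter, 1224 and 5 with normexp and 2773 and 154 with only the compared groups. In GFP against mock IP it was 4808 and 6314, but 5463 and 3398, 3925 and 3732, 1270 and 81, and 3759 and 1967. With 2 arrays a group, the number of arrays limits every value, and probes near background limit Rbl2, E2f4 and E2f6.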
